A study of Mus musculus with 18 samples.

Results

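The core circadian clock genes examined here are 10 genes, Arntl, Clock, Npas2, Cry1, Per1, Per2, Per3, Nr1d1, Nr1d2 and Ciart. They were taken by gene symbol from the deposited table of 54838 genes, and each symbol was listed once. RNA of mouse liver and liver tumours was sequenced in 18 samples, in 6 groups of 3. The mice were C57BL/6 and, by the labels, 36 weeks old. WT mice and global miR-181ab1 knockout mice (GKO, which lack this microRNA cluster in every tissue) gave tumours and non-tumours after diethylnitrosamine (DEN, a liver carcinogen), given once by intraperitoneal injection at 25 mg/kg on postnatal day 12. Non-tumours are the liver tissue around the tumours. WT and GKO normal livers came from mice that received no DEN. The hour of tissue collection is not given in the sources used here, so the hour and the group cannot be told apart. The labels do not say which samples came from the same mouse, so the p-values measure only the spread between these samples.

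The clock is a feedback loop of transcription that runs in nearly every cell and, in liver, times much of metabolism to the day. ARNTL (also called BMAL1) pairs with CLOCK or its relative NPAS2 and binds E-boxes in the Per, Cry, Nr1d and Ciart genes. PER and CRY proteins then return to the nucleus and inhibit the pair, while NR1D1 and NR1D2 (the REV-ERBs) repress Arntl, Clock, Npas2 and Cry1 through ROR elements (ROREs). In mouse liver, Arntl and Npas2 RNA therefore peaks many hours away from Nr1d1, Per3 and Ciart RNA. CIART (CHRONO) is a further repressor of the ARNTL pair.

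The promoters of 5 of these genes are shown in part because they hold the letters of elements by which clock proteins are known to act on these genes. The sequences are RefSeq promoter windows of the GRCm38.p6 assembly, read 5′ to 3′ on the strand of the gene, and capitals mark the motif letters found on either strand.
Ciart, chr3:95882254-95882353, minus strand: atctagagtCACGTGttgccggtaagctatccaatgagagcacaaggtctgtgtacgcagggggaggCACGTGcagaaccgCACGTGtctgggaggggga
Per3, chr4:151044781-151044880, minus strand: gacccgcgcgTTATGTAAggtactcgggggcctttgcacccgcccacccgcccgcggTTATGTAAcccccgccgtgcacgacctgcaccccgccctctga
Per1, chr11:69098769-69098808, plus strand: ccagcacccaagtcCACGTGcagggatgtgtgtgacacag
Cry1, chr10:85185095-85185144, minus strand: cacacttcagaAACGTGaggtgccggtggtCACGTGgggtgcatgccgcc
Arntl, chr7:113207529-113207558, plus strand: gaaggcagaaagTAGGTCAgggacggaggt

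In Ciart the E-box (CACGTG) occurred 3 times, beginning 116, 58 and 44 bases before the start site. Per3 held the D-box (TTATGTAA, the element bound by DBP, TEF, HLF and NFIL3) at 205 and 158 bases before its start. Per1 held an E-box at 166 bases. Cry1 held an E-box at 60 bases and a related E-prime box (CACGTT, here as AACGTG on the gene's strand) at 79 bases. The core of the RORE (TAGGTCA) began 30 bases after a start site of Arntl. Nr1d1 held an E-prime box 28 bases before its start. Windows of 300 bases were found for 9 of the 10 genes, 13 windows in all. Of all 32851 promoter windows of this length, 7.15% held an E-box, 4.68% an E-prime box, 2.61% the RORE core and 1.06% a D-box (TTACGTAA or TTATGTAA). A match is a description of the letters and was not tested for binding. In the GENCODE annotation on mm10, Ciart lies at chr3:95878503-95882251, Per3 at chr4:151003652-151044665, Per1 at chr11:69095217-69109960, Cry1 at chr10:85131700-85185064 and Arntl at chr7:113207465-113314126. The stretches of Ciart, Per3 and Cry1 lie just outside these genes, upstream of them, and those of Per1 and Arntl lie inside the annotated genes.

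Levels are given in TPM, which are reads divided by gene length and scaled to a total of 1000000 in each sample. Between 11925055 and 20751348 reads fell on genes in a sample. The 6 hepatocyte markers summed to between 60518 and 204834 TPM, and all were detected in every group. WT tumours 1 and 2 stood closer to each other than any other pair within a group, with an r of 0.982 over 13914 genes against at most 0.979, so results with the WT tumours are also given with these 2 averaged as 1 sample.

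In the tumours, the 2 sides of the loop lay in opposite directions between the genotypes. Arntl and Npas2 were lower in all 3 GKO tumours than in any WT tumour, and Per1, Per2, Per3, Nr1d2 and Ciart were higher. These 7 of the 10 genes also had an unadjusted p under 0.05 by limma, against 8.87% of the 13964 genes tested. None had an adjusted p under 0.05 (lowest 0.291, for Per3), a level that 0.0215% of all genes reached, so none of the 10 is called as changed. Voom, limma's method for counts, run on reads recovered from the TPM, called 0 of them as well, with 8 at an unadjusted p under 0.05.

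Arntl, the activator without which the loop stops, was at 5.15, 2.82 and 1.69 TPM in WT tumours 1, 2 and 3. It was at 0.288, 0.601 and 0.551 TPM in GKO tumours 1, 2 and 3. The groups did not overlap, and the means were 3.22 ± 1.76 TPM and 0.480 ± 0.168 TPM (SD, n = 3 each). The difference of GKO from WT tumours was -1.43 on the log2(TPM + 1) scale (SE 0.32), with a limma adjusted p of 0.366. The added 1 understates the change of genes at such low levels.

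Npas2, which takes the place of Clock in the ARNTL pair, was at 2.68, 2.44 and 0.568 TPM in the WT tumours. The GKO tumours had 0.158, 0.383 and 0.559 TPM. WT tumour 3 lay just above GKO tumour 3, by 24 against 22 reads, while the other WT tumours stood well apart from all 3 GKO tumours. The log2 difference was -1.0 (SE 0.36), with a limma adjusted p of 0.520.

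Clock and Cry1 overlapped between the genotypes. Clock, the partner of ARNTL, was at 3.56, 2.55 and 3.70 TPM in WT tumours and at 1.17, 1.97 and 2.76 TPM in GKO tumours. Cry1, a repressor whose RNA peaks late in the cycle, was at 7.97, 3.68 and 1.39 TPM in WT tumours, the widest spread of any group for this gene. In GKO tumours it was at 1.88, 2.75 and 2.08 TPM. WT tumour 3 thus held the lowest Cry1 of the 6 tumours, although its Arntl was above that of every GKO tumour. The log2 differences were -0.55 (SE 0.27) for Clock and -0.53 (SE 0.46) for Cry1.

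On the repressor side the gap was widest for Ciart and Per3. Ciart was at 0.963, 1.78 and 2.05 TPM in the WT tumours. The GKO tumours had 19.5, 5.25 and 14.4 TPM, each above all WT tumours, and the log2 difference was 2.30 (SE 0.45, limma adjusted p = 0.302). Per3, a period gene with a strong rhythm in liver, was at 0.768, 0.988 and 1.29 TPM in WT tumours. It was at 7.96, 3.12 and 7.71 TPM in GKO tumours, a log2 difference of 1.77 (SE 0.34, limma adjusted p = 0.291). GKO tumour 2 was the lowest GKO tumour for both genes.

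Per1 and Per2, period genes that also answer to hormones and feeding, were higher in the GKO tumours by smaller margins. Per1 was at 6.79, 7.20 and 4.69 TPM in WT tumours and at 17.9, 9.53 and 19.8 TPM in GKO tumours. Per2 was at 1.65, 2.45 and 3.60 TPM in WT tumours and at 5.49, 3.61 and 10.4 TPM in GKO tumours, so that WT tumour 3 and GKO tumour 2 were nearly equal. The log2 differences were 1.17 (SE 0.32) and 1.01 (SE 0.38), with limma adjusted p of 0.414 and 0.533.

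The REV-ERB genes differed from each other. Nr1d2 was at 8.81, 9.07 and 8.17 TPM in WT tumours, a narrow range, and at 17.1, 13.7 and 27.2 TPM in GKO tumours, with a log2 difference of 1.02 (SE 0.27, limma adjusted p = 0.414). Nr1d1, the member with the highest level in every group, was at 45.3, 41.7 and 63.5 TPM in WT tumours. It was at 42.4, 84.2 and 142 TPM in GKO tumours, so GKO tumour 1 lay inside the WT range while GKO tumour 3 held the highest value of all 18 samples. The log2 difference was 0.69 (SE 0.44, limma adjusted p = 0.688).

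**Figure D1:**
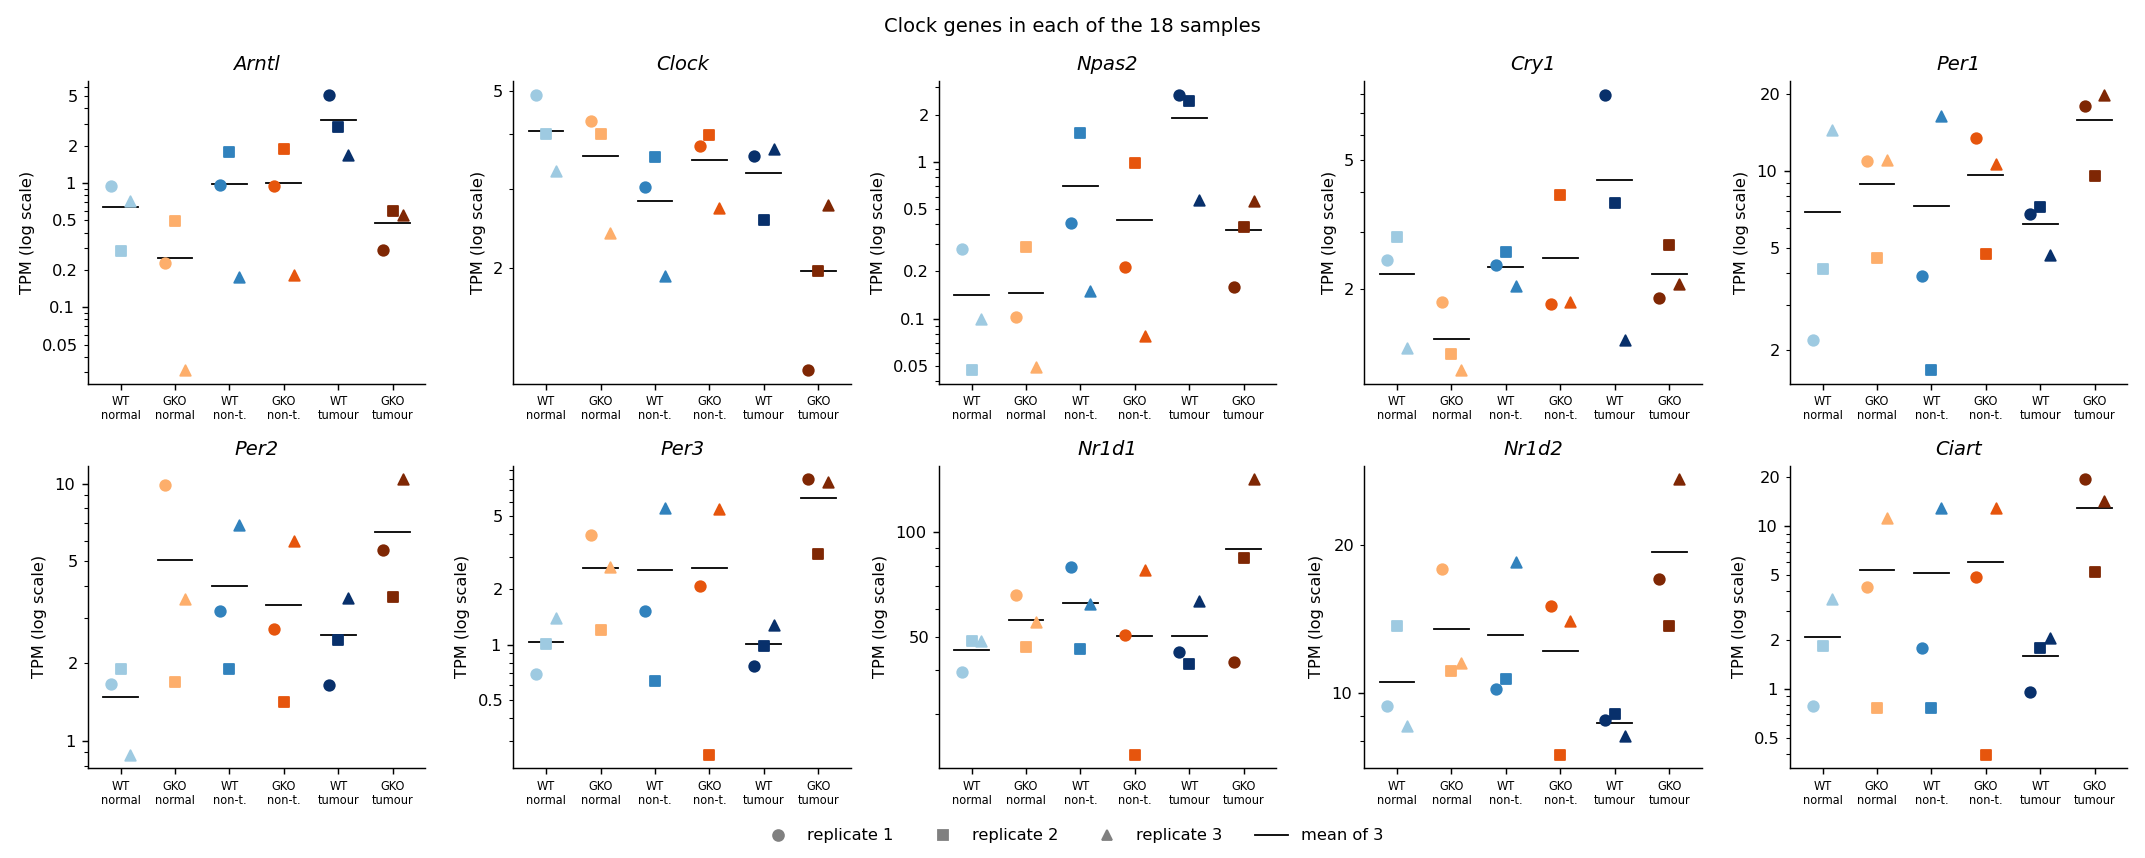
TPM of the 10 clock genes (y axis, log scale) in each sample of the 6 groups (x axis), with the replicate number given by the marker and the mean of 3 as a line. Arntl lay between 1.69 and 5.15 TPM in WT tumours and between 0.288 and 0.601 TPM in GKO tumours, and in non-tumours replicates 2 and 3 of both genotypes stood at opposite ends for Arntl, Per3 and Ciart.

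Of the genes tested, 14.7% had groups that did not overlap in this comparison, against 7 of the 10 clock genes. With 3 samples against 3, the exact permutation test of a single gene cannot give a p under 0.1, and it gave 0.1 for these 7. The median difference was 0.09 over all genes tested. Over the 4 genes Arntl, Clock, Npas2 and Cry1 it was -0.77, and over the other 6 it was 1.09. Without WT tumour 1, without WT tumour 2, or with these 2 averaged, 5 of the 10 had an unadjusted p under 0.05, and 8 had one without WT tumour 3. Arntl, Per3, Nr1d2 and Ciart were among them under all 13 alternatives, and none of the 10 was called under any.

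Markers of other cell types lay apart between the genotypes in the same tumours. The 6 fibroblast markers summed to between 35.2 and 57.8 TPM in WT tumours and to between 67.8 and 156 TPM in GKO tumours. The 6 cholangiocyte markers summed to between 22.2 and 53.8 TPM in WT tumours and to 37.6, 549 and 959 TPM in GKO tumours, of which the first lies in the WT range. No marker of these lists was at 0 throughout a group. The sums of the hepatocyte, endothelial, macrophage, T cell and B cell lists overlapped between the genotypes. None of the markers tested was called in this comparison by limma. Their part in the clock gene result was not tested, and in bulk tissue fewer cells of a type and less RNA per cell cannot be told apart.

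Within each genotype, the tumours were set against the non-tumours to see which of the tumour groups stood apart from its surrounding liver. In WT, Arntl was at 0.971, 1.79 and 0.175 TPM in non-tumours 1, 2 and 3, so that WT tumour 3 overlapped with them at 1.69 TPM. Its log2 difference was 1.10 (SE 0.42), the only one of the 10 with an unadjusted p under 0.05, against 19.9% of all genes, and its limma adjusted p was 0.216. The count of such genes was 0 when WT tumour 1, WT tumour 2 or WT non-tumour 1 was left out or the first 2 tumours were averaged. It was 2 on leaving out WT non-tumour 2 and 3 on leaving out WT tumour 3. Nr1d2 was the only one without overlap, lower in the WT tumours than in the WT non-tumours, which had 10.2, 10.7 and 18.4 TPM, while 24.8% of all genes did not overlap. Its log2 difference was -0.50 (SE 0.26). None of the 10 was called, against 4.23% of all genes, and voom gave 0 calls and 1 gene at an unadjusted p under 0.05, again Arntl. Hepatocyte markers summed to between 168677 and 182672 TPM in WT tumours and to between 69002 and 90046 TPM in WT non-tumours. The median log2 difference of the 6 markers was only 0.16 and 1 was called, so the sum does not stand for all of them. The part of these markers in the clock gene values was not tested. This comparison, that of the tumours and the interaction share samples.

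In GKO, Clock was at 3.75, 3.99 and 2.72 TPM in non-tumours and overlapped with the tumours. Its log2 difference was -0.62 (SE 0.26, limma adjusted p = 0.147), the only unadjusted p under 0.05 among the 9 genes tested, against 31.7% of all genes. None of the 9 was called and none lacked overlap, where 11.7% of all genes were called and 38.3% did not overlap. Voom gave 0 calls and 1 gene at an unadjusted p under 0.05, again Clock. Hepatocyte markers summed to between 175228 and 204834 TPM in GKO tumours and to between 60518 and 88563 TPM in GKO non-tumours. The median log2 difference of the 6 hepatocyte markers was only 0.23 and 2 were called, so the sum does not stand for all of them. Fibroblast markers summed to between 67.8 and 156 TPM in GKO tumours and to between 45.1 and 65.8 TPM in GKO non-tumours. The part of both marker lists in the clock gene values was not tested. Npas2 was below the filter here, at 0.213, 0.986 and 0.0777 TPM in non-tumours. The median of all genes lay at 0.20 in this comparison. Relative to the median of each sample, Per3 differed by 0.99 and Ciart by 1.14, with unadjusted limma p of 0.13 and 0.20, and Clock by -0.86. The count at an unadjusted p under 0.05 was 5 without GKO non-tumour 3, 2 without GKO tumour 2 and 0 without GKO non-tumour 1 or 2.

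The difference of the tumour effect between the genotypes was tested as an interaction. None of the 10 genes was called, against 0.0142% of all genes, and 3 had an unadjusted p under 0.05, against 10.5%. These were Arntl at -1.45 (SE 0.57), Clock at -0.79 (SE 0.35) and Nr1d2 at 1.12 (SE 0.45), with limma adjusted p of 0.468, 0.475 and 0.472. Voom called 0 and gave 2 at an unadjusted p under 0.05. The median over all genes was 0.23, and relative to the median of each sample the 3 values were -1.67, -1.01 and 0.90. The count was 7 without GKO non-tumour 3, 5 without WT non-tumour 2, 1 without WT tumour 1, and 0 without WT non-tumour 3 or GKO non-tumour 2.

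**Figure D2:**
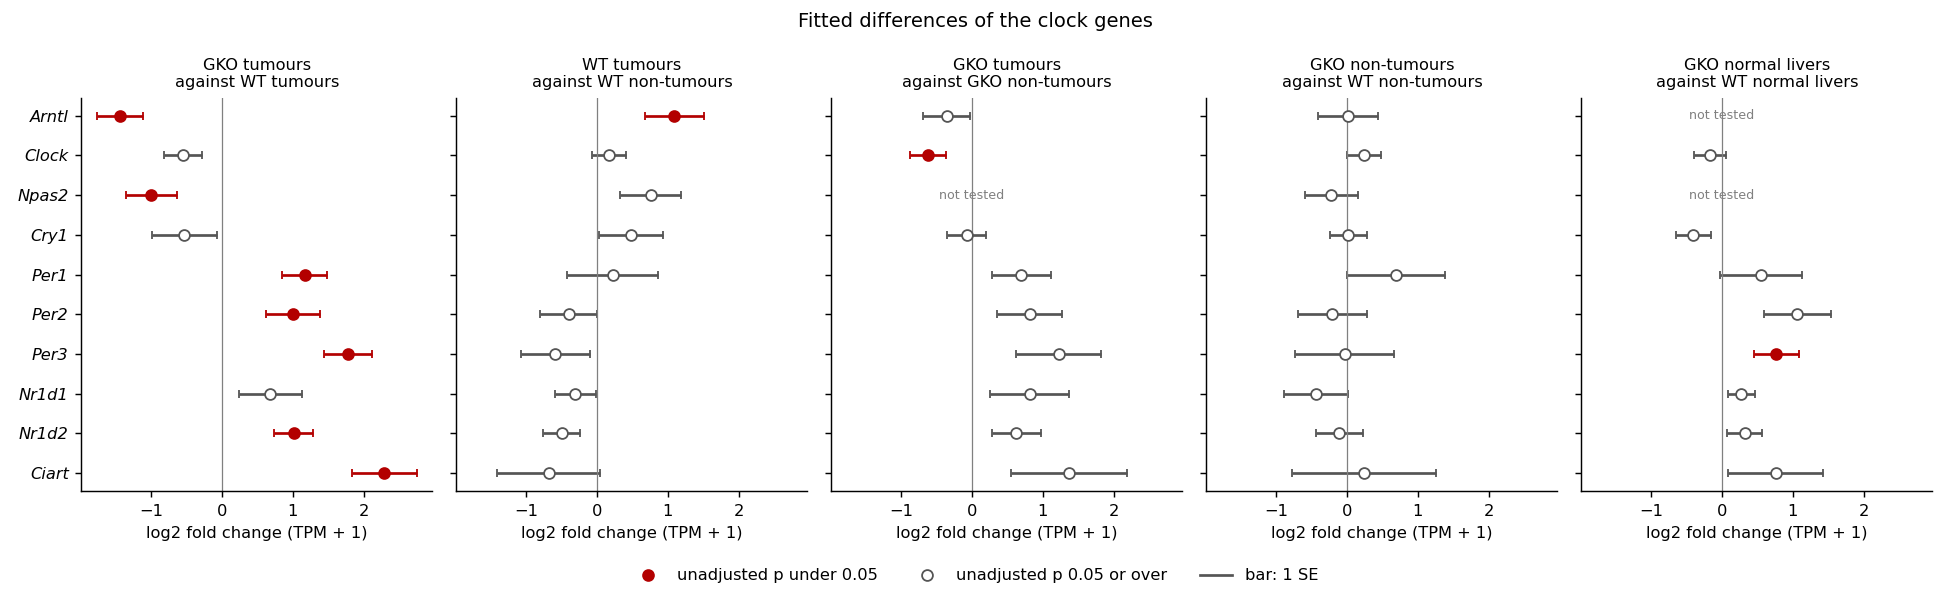
Fitted log2 differences on the TPM + 1 scale (x axis, bars of 1 SE) of the clock genes (y axis) in 5 comparisons of 3 samples with 3. Filled points have an unadjusted limma p under 0.05, which 7 genes reached between the tumours and at most 1 in each other comparison, and none has an adjusted p under 0.05.

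Between the non-tumours of the 2 genotypes, all 10 genes overlapped and none had an unadjusted p under 0.05, where 5.8% of all genes had one, 13.2% did not overlap and 0.0% were called. Voom also gave 0 in both counts, and the count at an unadjusted p under 0.05 was 1 without WT non-tumour 3. The single samples show how wide these groups were. Per3 was at 1.53, 0.637 and 5.53 TPM in WT non-tumours and at 2.10, 0.252 and 5.51 TPM in GKO non-tumours. Ciart was at 1.78, 0.758 and 13.1 TPM in the WT and at 4.86, 0.395 and 12.9 TPM in the GKO non-tumours. Replicate 2 of each genotype was the highest of its group for Arntl and the lowest for Per3 and Ciart, and replicate 3 was the reverse. The log2 difference of Arntl was 0.02 (SE 0.43), that of Per3 -0.03 (SE 0.70) and that of Ciart 0.24 (SE 1.02). The median over all genes was -0.15, and relative to the median of each sample Per3 changed sign to 0.13 and Nr1d2, at -0.10, to 0.06.

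Normal livers held little Arntl and Npas2. Arntl was at 0.940, 0.284 and 0.713 TPM in WT and at 0.228, 0.495 and 0.0312 TPM in GKO normal livers, the last resting on 2 reads. Arntl and Npas2 fell below the filter of a mean of 0.5 TPM, and the other 8 genes were tested. Per2 was at 1.66, 1.90 and 0.883 TPM in WT and at 9.84, 1.69 and 3.57 TPM in GKO normal livers. Per3 was at 0.690, 1.01 and 1.40 TPM in WT and at 3.96, 1.20 and 2.67 TPM in GKO normal livers, with GKO normal liver 2 inside the WT range. Its log2 difference was 0.77 (SE 0.32), the only unadjusted p under 0.05 of the 8, against 3.96% of all genes, and the limma adjusted p was 0.999. Voom gave 2 such genes, Per2 and Per3, and no call. No group pair lacked overlap, where 7.95% of all genes did, and 0.0% of all genes were called. The count was 3 without WT normal liver 3 or without GKO normal liver 2, and 0 without each of the other 4. Markers of 3 other cell types also lay apart without overlap between these livers. The cholangiocyte markers summed to between 33.1 and 50.6 TPM in WT and to between 82.8 and 92.3 TPM in GKO normal livers. The endothelial markers summed to between 25.7 and 27.1 TPM and to between 45.2 and 53.2 TPM, and the fibroblast markers to between 34.3 and 36.6 TPM and to between 56.9 and 75.6 TPM. No marker was called in this comparison by limma, and their part in the clock gene values was not tested.

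Against normal livers of the same genotype, the non-tumours showed Per2 apart in WT. Per2 was at 3.20, 1.90 and 6.90 TPM in WT non-tumours, with non-tumour 2 just above WT normal liver 2. Its log2 difference was 0.91 (SE 0.38, limma adjusted p = 0.202), the only unadjusted p under 0.05 and the only pair without overlap among the 9 genes tested. Of all genes, 24.4% had such a p, 33.9% did not overlap and 0.00744% were called. The median over all genes was 0.32 here, and relative to the median of each sample Per2 differed by 0.53 and no longer had an unadjusted p under 0.05. On that scale Clock alone had one, at -0.79 against -0.42 without centring. By the same centring Arntl changed from 0.20 to -0.18, Cry1 from 0.08 to -0.30 and Nr1d2 from 0.27 to -0.11. Leaving out each of the other 5 samples gave 0 genes at an unadjusted p under 0.05, and leaving out WT non-tumour 2 gave 3. In GKO, none of the 9 genes tested had an unadjusted p under 0.05 or lacked overlap, against 5.2% and 8.73% of all genes, and 0.0% of all genes were called. The count was 1 without GKO non-tumour 3. Voom gave no call in either genotype, with 1 gene at an unadjusted p under 0.05 in WT, which was Clock and not Per2, and 0 in GKO. Endothelial markers summed to between 33.7 and 58.8 TPM in WT non-tumours, above the WT normal livers, and to between 54.6 and 68.5 TPM in GKO non-tumours, above the GKO normal livers. Cholangiocyte markers summed to between 30.2 and 53.7 TPM in GKO non-tumours, below the GKO normal livers, and the part of these markers was not tested.

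Ordered by group mean, WT tumours stood first for Arntl, Npas2 and Cry1, WT normal livers for Clock, and GKO tumours for the other 6 genes. GKO tumours were last for Clock. WT tumours were last for Per1, Per3, Nr1d2 and Ciart. All 5 neighbouring pairs in the order overlapped for each of the 10 genes, so at no step did all samples of a group lie apart from those of the next.

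Ciart and the Per genes varied most among samples of the same group. The SD within groups on the log2(TPM + 1) scale was 1.20 for Ciart, 0.87 for Per1, 0.74 for Per3 and 0.69 for Per2, against a median of 0.34 over 13914 genes. Of these genes, 98.55% lay at or below the SD of Ciart and 94.99% at or below that of Per1. Between these ends, the SD was 0.55 for Nr1d1, 0.48 for Arntl and for Cry1, 0.43 for Npas2 and 0.39 for Nr1d2. Of all genes, 74.14% lay at or below the SD of Arntl and 61.54% at or below that of Nr1d2. At the other end, Clock had an SD of 0.30, with 38.9% of genes at or below it. Over all 18 samples, Ciart ranged from 0.395 TPM in GKO non-tumour 2 (7 reads) to 19.5 TPM in GKO tumour 1 (407 reads), a ratio of 49.3. Per3 ranged over a ratio of 31.6, from 0.252 TPM in GKO non-tumour 2 to 7.96 TPM in GKO tumour 1. Clock ranged over a ratio of 4.17 and Nr1d2 over 3.63.

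To read the 2 sides together in a single sample, each gene was centred on its mean over the 18 samples in log2(TPM + 1). The average of Per1, Per2, Per3, Nr1d1, Nr1d2 and Ciart was then subtracted from the average of Arntl, Clock, Npas2 and Cry1. WT tumours 1, 2 and 3 had differences of 1.75, 1.05 and 0.39, and GKO tumours 1, 2 and 3 had -1.42, -0.49 and -1.50. WT tumour 1 was the highest of the 18 samples and GKO tumours 1 and 3 were the lowest, and the means were 1.06 ± 0.68 and -1.14 ± 0.56 (SD, n = 3 each). The non-tumours covered nearly the same span within each genotype. WT non-tumours had 0.26, 1.23 and -1.30, and GKO non-tumours had -0.25, 1.52 and -1.12, with means of 0.06 ± 1.28 and 0.05 ± 1.35 (SD, n = 3 each). WT normal livers had 0.96, 0.31 and -0.03, and GKO normal livers had -0.80, 0.39 and -0.93. The 6 non-tumours lay between -1.30 and 1.52 with the genotypes overlapping, so 3 of the 6 tumours (WT tumour 1 and GKO tumours 1 and 3) were outside their range and 3 within it. These values are a description, with no test, and do not give an hour of the day.

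**Figure D3:**
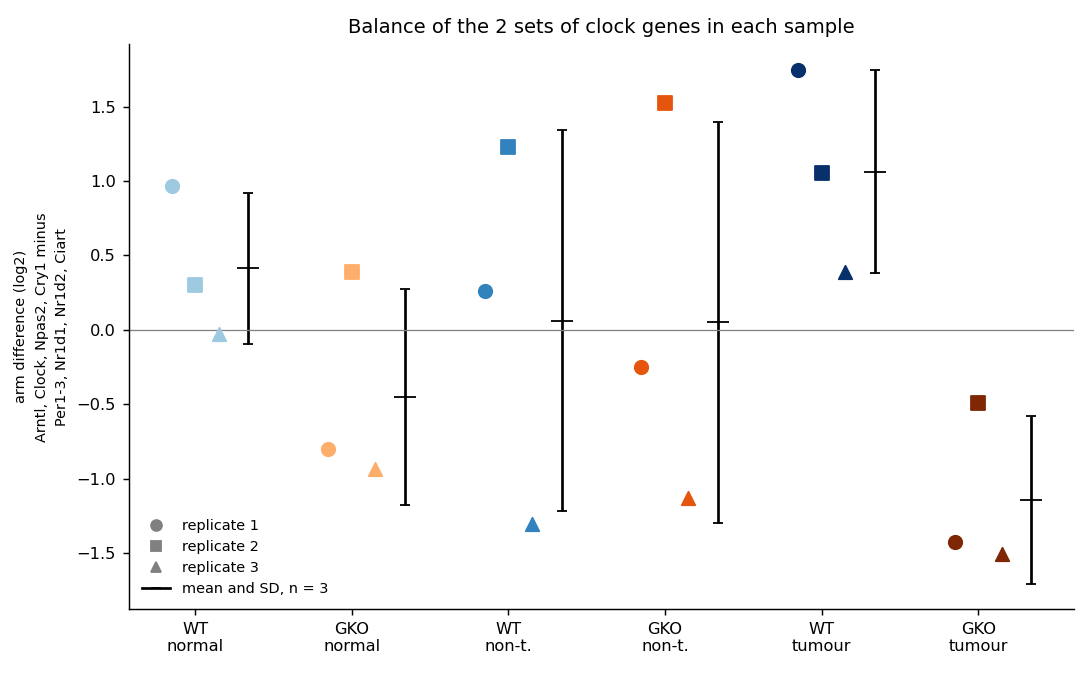
Average of Arntl, Clock, Npas2 and Cry1 minus the average of Per1, Per2, Per3, Nr1d1, Nr1d2 and Ciart in each sample (y axis, log2 units, each gene centred on its mean over 18 samples) by group (x axis), with mean and SD of 3 beside the points. The 3 WT tumours lie above 0 and the 3 GKO tumours below it, while the non-tumours of each genotype reach from under -1.1 to over 1.2.

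The relation of each gene to Arntl was then measured over the 12 livers without tumour, which come from 4 groups and had between 11925055 and 19178371 reads on genes. Npas2 followed Arntl most closely, with Pearson's r = 0.86 (permutation p = 0.00017) and Spearman's rho = 0.80 (permutation p = 0.0028). Per3 ran opposite, with r = -0.78 (permutation p = 0.004) and rho = -0.76 (permutation p = 0.0054), and so did Ciart, with r = -0.76 (permutation p = 0.0058) and rho = -0.80 (permutation p = 0.0028). Nr1d2 had r = -0.65 (permutation p = 0.024) and rho = -0.66 (permutation p = 0.024), and Per2 had r = -0.60 (permutation p = 0.040) and rho = -0.59 (permutation p = 0.046). For Nr1d1 r was -0.61 (permutation p = 0.031) and rho -0.52 (permutation p = 0.083). For Per1 r was -0.59 (permutation p = 0.045) and rho -0.52 (permutation p = 0.084). Cry1 had r = 0.61 (permutation p = 0.038) and rho = 0.54 (permutation p = 0.076), and Clock had r = 0.46 (permutation p = 0.13) and rho = 0.36 (permutation p = 0.25).

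All 9 signs thus followed the sides of the loop, and 8 of the 9 values of r had a 2-sided permutation p under 0.05 (100000 resamples). Of the 13487 genes that averaged 0.5 TPM or more over these livers, 5.23% had such a p. Adjusted over all of these genes by Benjamini-Hochberg, 0.0% reached 0.05, and the lowest adjusted p among the 8 clock genes in that set was 0.540, for Per3. Npas2 lay below that level.

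The 2 livers farthest from the median of Arntl were WT non-tumour 2 and GKO non-tumour 2, both at high Arntl. Without them r was 0.75 for Npas2 (permutation p = 0.014), -0.65 for Ciart (permutation p = 0.050), -0.64 for Per3 (permutation p = 0.054) and -0.57 for Per2 (permutation p = 0.089). It was 0.26 for Cry1 (permutation p = 0.46), -0.29 for Nr1d1 (permutation p = 0.41), -0.41 for Per1 (permutation p = 0.23) and -0.53 for Nr1d2 (permutation p = 0.12). For these 4 genes, Per2 and Per3 the p was then over 0.05, with 10 livers in place of 12, and the r of Per2 moved only from -0.60 to -0.57. Cry1 and Nr1d1 had the largest moves in r of the 9 genes. Centred on the group means, r was 0.90 for Npas2 (exact permutation p = 0.0054), -0.91 for Per3 (exact permutation p = 0.0093), -0.90 for Ciart (exact permutation p = 0.0039), -0.74 for Per2 (exact permutation p = 0.021) and 0.77 for Clock (exact permutation p = 0.014).

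Within the 6 non-tumours alone, Per3 had r = -0.99 (exact permutation p = 0.0014), Per2 r = -0.99 (exact permutation p = 0.0042), Ciart r = -0.97 (exact permutation p = 0.0014), Npas2 r = 0.88 (exact permutation p = 0.031) and Clock r = 0.85 (exact permutation p = 0.021). The p of 0.0014 is the smallest that 6 samples can give. Within the 6 normal livers, where Arntl did not exceed 0.940 TPM, the signs were the same and no p was under 0.05, with r = 0.69 for Npas2 and -0.73 for Ciart.

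**Figure D4:**
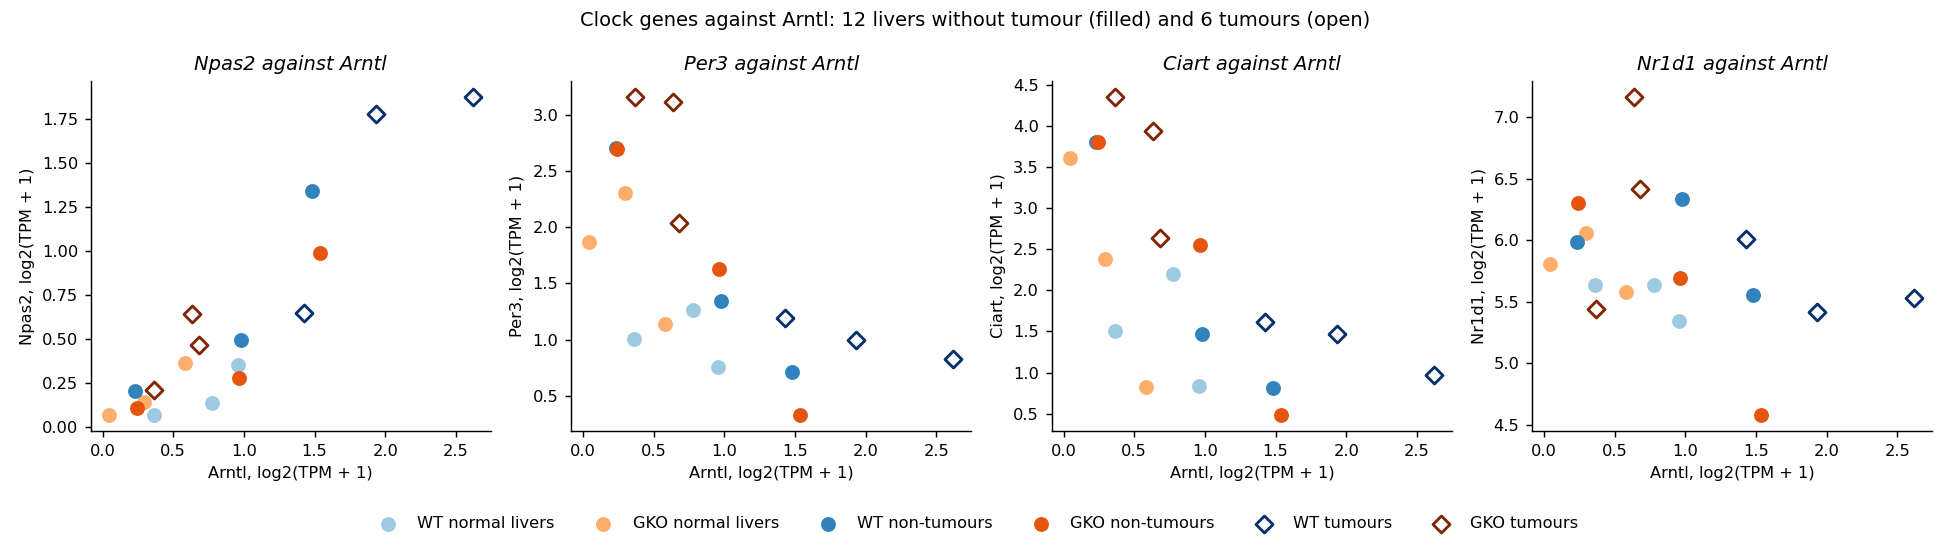
Npas2, Per3, Ciart and Nr1d1 (y axes) against Arntl (x axis), both in log2(TPM + 1), in 12 livers without tumour (filled circles) and 6 tumours (open diamonds), coloured by group. Over the 12 livers r was 0.86 for Npas2, -0.78 for Per3, -0.76 for Ciart and -0.61 for Nr1d1, and Nr1d1 shows GKO non-tumour 2 far below the rest.

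Among the 13487 genes, those with the highest r with Arntl over the 12 livers were Rfxank (0.91), Tymp (0.91), Gm36355 (0.90), Lgalsl (0.87) and Gm42031 (0.86). The lowest were Gys2, the liver glycogen synthase, at -0.94, then Pgap1 (-0.94), Lipe (hormone-sensitive lipase, -0.89), Tef (-0.88) and Igfals (-0.85). Gys2 ranged from 53.2 to 193 TPM and Tef from 9.96 to 42.2 TPM over these livers. Tef is a clock output factor, and 2 of its relatives, Hlf (-0.79) and Dbp (-0.76), ranked 21st and 32nd from the bottom. Per3 ranked 27th, Ciart 34th and Nr1d2 113th from the bottom, and Cry1 303rd from the top.

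A list of 26 further clock genes was examined beside the 10. Between GKO and WT tumours, 25 were tested, 0 were called, 6 were higher and 2 lower at an unadjusted p under 0.05, and the median difference was 0.42. Over all genes, 8.87% had such a p and the median difference was 0.09. Dbp, a PAR bZIP activator that acts through D-boxes such as the pair of Per3, was at 42.4, 42.4 and 87.8 TPM in WT tumours and at 193, 120 and 256 TPM in GKO tumours. Its log2 difference was 1.73 (SE 0.40, limma adjusted p = 0.369). Tef, its relative, was at 9.13, 7.58 and 15.7 TPM and at 37.0, 20.5 and 51.7 TPM, a difference of 1.63 (SE 0.40, limma adjusted p = 0.374). Usp2, a rhythmic deubiquitinase, was at 1.61, 1.26 and 0.917 TPM in WT tumours and at 16.4, 5.33 and 14.6 TPM in GKO tumours, a difference of 2.42 (SE 0.40, limma adjusted p = 0.241). None of these 3 overlapped between the genotypes.

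Nfil3 and Rora lay the other way. Nfil3, which competes with DBP at D-boxes and represses there, was at 39.9, 38.0 and 25.3 TPM in WT tumours and at 17.0, 9.90 and 10.2 TPM in GKO tumours, a log2 difference of -1.42 (SE 0.29, limma adjusted p = 0.326). Rora, an activator at the RORE, was at 23.6, 21.8 and 23.7 TPM in WT tumours and at 5.31, 12.1 and 9.49 TPM in GKO tumours, a difference of -1.34 (SE 0.29, limma adjusted p = 0.360). The differences were 0.77 (SE 0.36) for Cry2, 1.03 (SE 0.56) for Hlf, 1.04 (SE 0.51) for Bhlhe40 and 0.72 (SE 0.31) for Bhlhe41, with unadjusted p over 0.05 for these 4 genes. Between GKO and WT normal livers, Dbp differed by 0.96 (SE 0.37), Tef by 0.62 (SE 0.32) and Usp2 by 1.52 (SE 0.53). Nfil3 differed there by -0.99 (SE 0.30) and Rora by 0.21 (SE 0.26), the last opposite in sign to the tumours. Of Dbp, Tef, Usp2, Nfil3 and Rora, none was called there and only Nfil3 lacked overlap, against 7.95% of all genes. Between the non-tumours all of them overlapped, and 13.2% of all genes did not.

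**Figure D5:**
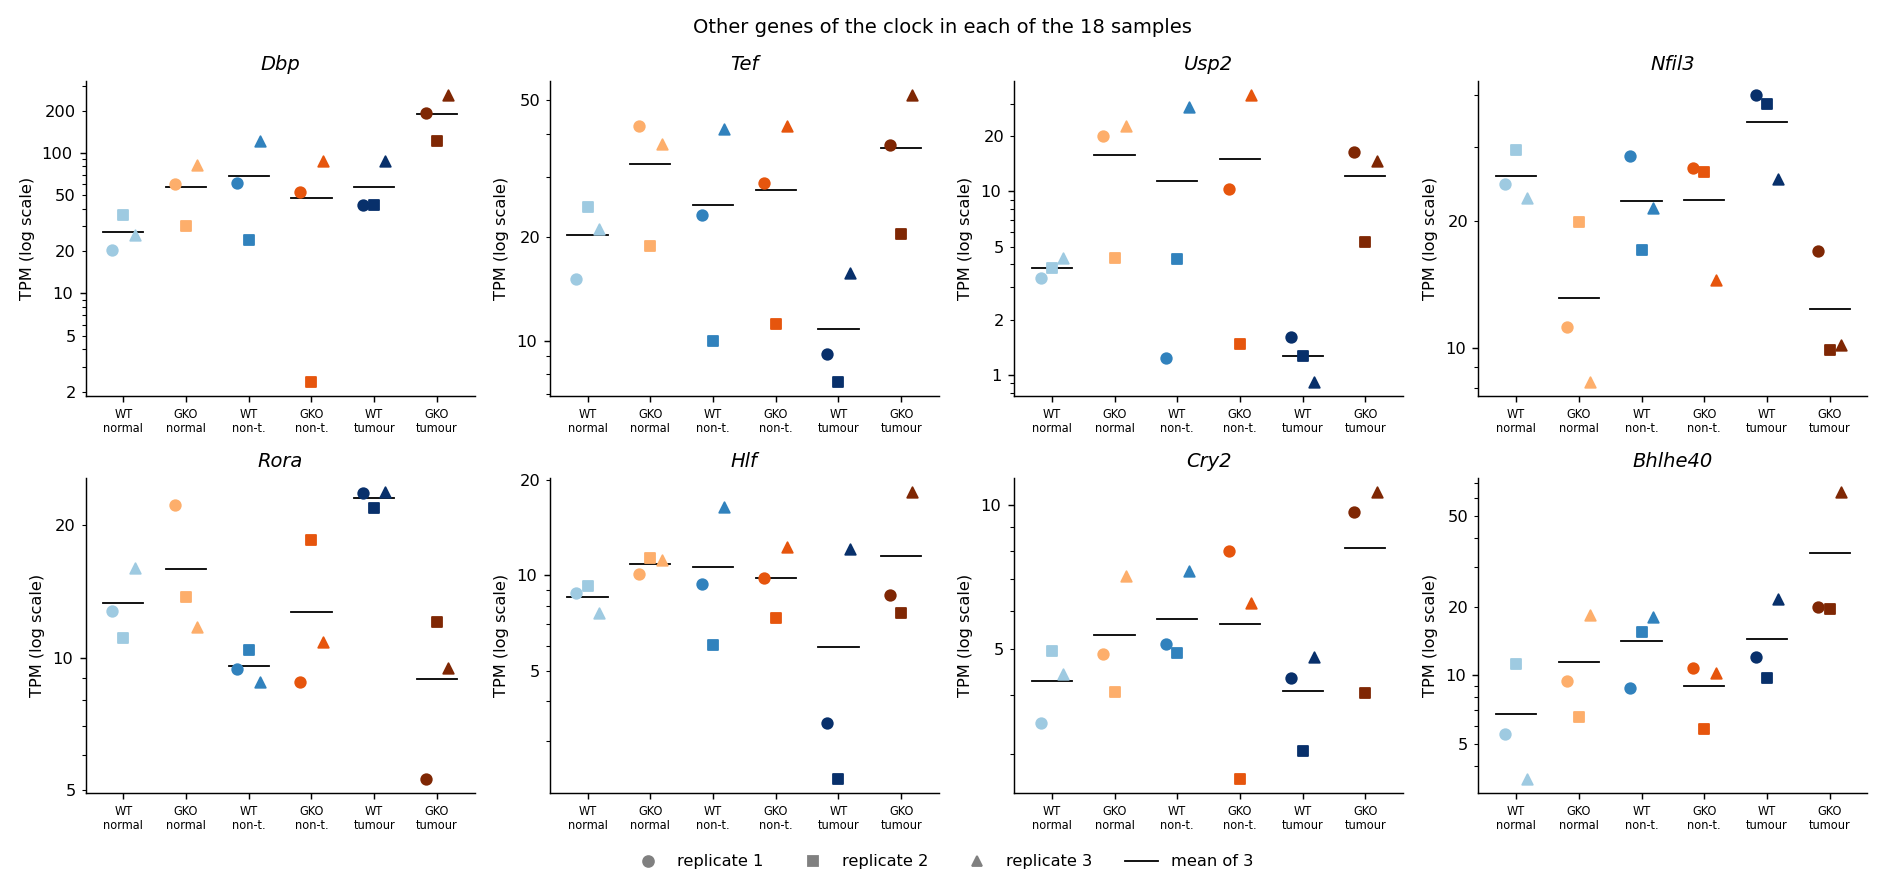
TPM of 8 further clock genes (y axis, log scale) in each sample of the 6 groups (x axis), with the replicate number given by the marker and the mean of 3 as a line. Dbp, Tef and Usp2 were higher and Nfil3 and Rora lower in every GKO tumour than in every WT tumour, and Dbp in GKO non-tumour 2 stood at 2.35 TPM.

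Some of these genes passed the test between tumours and non-tumours. In WT, Rora rose from 9.44, 10.4 and 8.81 TPM in non-tumours by 1.19 (SE 0.18, limma adjusted p = 0.0196). The call was lost when WT tumour 1, WT tumour 2, WT non-tumour 1 or WT non-tumour 3 was left out, with the first 2 tumours averaged, and with the replicate block. Of all genes, 4.23% were called in this comparison. In GKO, Csnk1e, a kinase of PER proteins, rose by 0.70 (SE 0.18, limma adjusted p = 0.0463) and Fbxl21, which acts on CRY proteins, fell by 0.97 (SE 0.23, limma adjusted p = 0.0378), 2 of 24 tested, where 11.7% of all genes were called. Both calls were lost on leaving out each one of the 6 samples, with no filter on low values and with the replicate block. That of Csnk1e was also lost on median centring and with voom, and that of Fbxl21 with a pseudocount of 0.1. Both genes lay in the same direction in WT tumours against WT non-tumours, without a call. There Fbxl21 differed by -1.28 (SE 0.27, limma adjusted p = 0.0503) and Csnk1e by 0.44 (SE 0.19, limma adjusted p = 0.268). Neither overlapped in WT, where 24.8% of all genes did not. In the other comparisons and in the interaction, 0 of the 24 tested were called, with between 0 and 5 at an unadjusted p under 0.05.

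Genes that follow feeding and glucocorticoids were read beside the clock, and their part in it was not tested. Of 10 feeding and fasting genes, 0 were called between the tumours. By limma 2 were higher (Srebf1 and Angptl4) and 1 lower (G6pc) at an unadjusted p under 0.05, which 8.87% of all genes had. G6pc, the last enzyme of glucose output, was at 91.1 to 140 TPM in WT tumours and at 3.77, 30.1 and 62.7 TPM in GKO tumours. Srebf1, a lipogenic factor, was at 58.8, 58.3 and 23.8 TPM and at 105, 99.96 and 274 TPM in the same order. In WT tumours against non-tumours, Igfbp1 rose by 6.65 (SE 0.45, limma adjusted p = 0.0015) and kept its call under every alternative. In GKO, Srebf1 rose by 1.79 (SE 0.42, limma adjusted p = 0.0372) and Pnpla3 by 2.53 (SE 0.61, limma adjusted p = 0.0398). Both of these calls were lost on leaving out any one GKO non-tumour or GKO tumour 1. Of 7 glucocorticoid-responsive genes, 0 were called in any comparison. Mt1, a metallothionein, was at 187, 236 and 126 TPM in WT tumours and at 3324, 1045 and 1131 TPM in GKO tumours. Fkbp5 was at 7.33, 7.33 and 14.1 TPM and at 11.5, 13.5 and 15.8 TPM.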

How the data were processed

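The 18 RNA-seq samples were placed in 6 groups from the labelled genotype and tissue. The authors aligned reads with STAR 2.7.3a to mm10, counted them with featureCounts 2.0.0 and deposited TPM. TPM times the exonic length of GENCODE mouse release 21 gave whole reads, within 0.02, for 97.95% or more of the low values (at most 30 reads) of each sample.

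Group differences came from limma (version 3.58.1, R 4.3.3; a linear model with trended moderation of the variances) fitted to log2(TPM + 1). Genes averaging 0.5 TPM or more over the samples of a comparison entered it. Benjamini-Hochberg adjustment was made over all genes, with calls at an adjusted p under 0.05. Correlations had 2-sided permutation tests. Other steps used Python 3.11.15 and scipy 1.17.1. The procedure was tested on simulated data in which 200 genes at higher levels were changed by 2 log2 units. With the spread of GKO and WT tumours, 64.5% of these were called. No smaller change was simulated, and none in genes at low levels such as Arntl and Npas2. The share of such changes that would be called is therefore not known.

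The 10 clock genes and the lists (26 further clock genes, 10 feeding and fasting genes, 7 glucocorticoid-responsive genes, and 6 markers each of hepatocytes, cholangiocytes, fibroblasts, endothelium, macrophages, B cells and T cells) were chosen with earlier results of these data known. Named beside them are further clock genes called in any comparison, some fixed ones, and the 5 genes of highest and the 5 of lowest r with Arntl. Some genes of the lists are not reported here. Other list genes are examples chosen after their values were seen. Of the marker lists, 1 hepatocyte gene was called, higher, in WT tumours against non-tumours. In GKO tumours against non-tumours 2 hepatocyte, 4 fibroblast and 2 endothelial genes were called higher, and 1 fibroblast, 1 macrophage and 2 B cell genes lower. No T cell or cholangiocyte marker was called in any comparison.

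Replicate numbers were checked for pairing. Same-numbered GKO and WT tumours had r of 0.10, 0.12 and 0.20 in their deviations from the group means. GKO tumour 1 correlated best with a WT tumour of another number, so pairing was not established. The labels do not name a shared batch, and the main fits had no replicate block. With the replicate block, 0 clock genes were called and 7 had an unadjusted p under 0.05. Among all genes, 0 were called with the block and 3 without it.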

Additional observations from a re-analysis of the deposited data

How the results depend on the processing

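The 10 clock genes gave 0 calls in all 8 tests and under all alternatives (0.1 as pseudocount, no expression filter, median centring, all 18 samples in one fit, a replicate block, voom, each replicate left out and, added after seeing the data, WT tumours 1 and 2 averaged). Of their 987 fitted differences under an alternative, 54 had the opposite sign, all of differences smaller than their SE. The count at an unadjusted p under 0.05 between GKO and WT tumours stayed between 5 and 8.

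The other counts at an unadjusted p under 0.05 moved. In WT tumours against non-tumours the count of 1 became 2 with all samples in one fit, 2 with the replicate block and 0 with WT tumours 1 and 2 averaged, and 0 to 3 with a replicate left out. In GKO tumours against non-tumours the count of 1 became 0 with no filter, 2 with all samples in one fit and 5 with the replicate block, and 0 to 5 with a replicate left out. In normal livers the count of 1 became 2 with a pseudocount of 0.1, the replicate block or voom, 0 with no filter or all samples in one fit, and 0 to 3 with a replicate left out. In WT non-tumours against normal livers it became 0 with no filter, all samples in one fit or the replicate block, and 0 to 3 with a replicate left out. The interaction count of 3 became 5 with the replicate block and 0 to 7 with a replicate left out. The 2 comparisons with a count of 0 gave 0 to 1 with a replicate left out. Between GKO and WT tumours every same-numbered pair had a correlation over 0.1, which no other comparison showed. By the labels, the samples of every comparison share only a number. In GKO tumours against non-tumours the 3 pairs had r of 0.12, 0.069 and 0.041 and each tumour correlated best with its own number, a hint from the data, and the 5 genes under the block were Per1, Per2, Per3, Nr1d2 and Ciart.

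Over all genes, the 3 calls between the tumours became 0 with a pseudocount of 0.1, no filter, median centring, voom or WT tumours 1 and 2 averaged, 107 with all samples in one fit, and 0 to 147 with a replicate left out. The 592 calls in WT tumours against non-tumours became 297 with no filter, 1649 with all samples in one fit, 361 with the block and 185 with WT tumours 1 and 2 averaged, and the 1652 in GKO became 589 with no filter and 2722 with all samples in one fit. With a replicate left out these were 163 to 1363 and 229 to 1567. The single call in WT non-tumours against normal livers became 4 with a pseudocount of 0.1, 46 with all samples in one fit and 0 with no filter, the block or voom, and 0 to 4 with a replicate left out, and the 2 of the interaction became 0 with a pseudocount of 0.1 or voom, 4 with no filter and 13 with all samples in one fit, and 2 to 91 with a replicate left out. The 0 calls between non-tumours and in GKO non-tumours against normal livers became 1 with all samples in one fit, and in the latter 0 to 2 with a replicate left out. Median centring changed the GKO calls from 1092 higher and 560 lower to 777 higher and 990 lower.

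The averages of the 2 sides of the loop moved by less than 1 SD under every alternative. Of the correlations with Arntl, centring on the group means gave p over 0.05 for Cry1 (0.44), Per1 (-0.67), Nr1d1 (-0.74) and Nr1d2 (-0.73), and under it for Clock (0.77). A pseudocount of 0.1 did so for Cry1 (0.58) and Nr1d1 (-0.55). Without the 2 farthest livers r was 0.26 for Cry1, -0.41 for Per1, -0.57 for Per2, -0.64 for Per3, -0.29 for Nr1d1 and -0.53 for Nr1d2. In 6 normal livers r was 0.69 for Npas2, 0.26 for Cry1, -0.46 for Per1, -0.62 for Per2, -0.72 for Per3, -0.75 for Nr1d1, -0.65 for Nr1d2 and -0.73 for Ciart. In 6 non-tumours it was 0.85 for Clock, now under 0.05, and 0.75 for Cry1, -0.78 for Per1, -0.72 for Nr1d1 and -0.82 for Nr1d2, now over it. With 6 samples the smaller number alone raises p.

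Among genes of the lists, sign changes with no call on either side were found against normal livers. With median centring in WT non-tumours they were Cry2 (-0.028), Csnk1e (-0.12), Btrc (-0.19), Timeless (-0.15), Gsk3b (-0.073) and Prkaa2 (-0.093). With a replicate left out they were Sgk1 (-0.86 to 0.0037) in the same comparison, Srebf1 (-0.00497 to 0.59) and G6pc (-0.52 to 0.012) between normal livers, and Dbp (-2.003 to 0.36) in GKO non-tumours. The cause of these sign changes was not tested. Read counts were low for Arntl and Npas2, with 3 or fewer in 1 and 3 of the 18 samples.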
